A study of Sus scrofa with 17 samples.

Results

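The transcripts described are those of 9 amino acid transporters, SLC7A5, SLC3A2, SLC38A2, SLC38A3, SLC1A5, SLC7A1, SLC7A8, SLC36A1 and SLC43A1, in the longissimus muscle of weaned piglets. They were chosen by symbol from the 31908 Ensembl genes of the deposited read counts, and all 9 had a row of counts. Male Large White × Duroc piglets entered the trial at 28 days of age, were kept in individual metabolic cages and pair-fed, and received their diet for 2 weeks after 5 days of adaptation. The 6 control piglets ate a diet of wheat, maize and soybean meal without seaweed, the 6 UL piglets ate a diet with 7% of the green seaweed Ulva lactuca, and the 5 ULU piglets ate the UL diet with 0.01% of the recombinant enzyme ulvan lyase, which degrades a polysaccharide in the cell wall of the seaweed. One RNA library was sequenced per piglet, and the methods name 6 ULU piglets where 5 libraries were analysed here. The comparison of UL with control asks what the seaweed changed, ULU vs control asks what seaweed and enzyme changed together, and ULU vs UL asks what the enzyme added to the seaweed. Piglets are given below by diet and number, such as control 25.

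Amino acids cross the plasma membrane of a muscle fibre only on carriers. SLC3A2 (CD98, the heavy chain) anchors light chains such as SLC7A5 (LAT1) and SLC7A8 (LAT2), which exchange large neutral amino acids such as leucine, while SLC43A1 (LAT3) carries them without a partner. SLC38A2 (SNAT2) and SLC38A3 (SNAT3) bring in small neutral amino acids and glutamine together with sodium, SLC1A5 (ASCT2) exchanges neutral amino acids, SLC7A1 (CAT1) carries arginine and lysine, and SLC36A1 (PAT1) moves small amino acids with protons, mainly at the lysosome. When amino acids are scarce, cells use the transcription factor ATF4 to raise the transcripts of several of these carriers together with those of aminoacyl-tRNA synthetases and enzymes of amino acid synthesis. Amino acids in the lysosome are in turn sensed by the kinase complex mTORC1, through the Rag GTPases.

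The libraries held 16137365 to 26546810 counted reads. Levels are given as CPM, reads per 1000000 counted reads of a library after scaling by TMM, and 3 reads, taken as the smallest detectable signal, were worth 0.130 to 0.195 CPM, a limit that covers counting error only. Of the 9 transporters, 8 passed the filter on low counts and were tested among 14203 genes. The tissue label was checked on 6 muscle markers of 10 that were matched, whose summed level was 91557 to 146277 CPM in control, 117555 to 156893 CPM in UL and 133098 to 247251 CPM in ULU. Marker sums of 7 other cell types overlapped between the diets, and no matched marker was at 0 in all libraries. Mitochondrial genes took 14.05% to 15.9% of the counts in control, 8.64% to 14.8% in UL and 8.002% to 11.6% in ULU, so that ULU and control did not overlap (two-sided exact permutation test, p = 0.00433, adjusted p = 0.130 over 36 comparisons of library measures). That unadjusted p is the smallest this test can give with 6 and 5 libraries. ULU 43 had the lowest scaling factor of the 17 libraries, 0.765. In RNA from whole muscle, fewer cells of a type and less RNA per cell cannot be told apart.

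No transporter passed an adjusted p-value of 0.05 in any comparison by the edgeR quasi-likelihood test. In UL vs control this was 0 of 8, beside 0% of all genes tested. In ULU vs control it was again 0 of 8, beside 2.98% of all genes, or 0.415% when the absolute log2(fold change) also had to reach 1. In ULU vs UL it was 0 of 8, beside 0.0352% of all genes, or 0.0141% with the same limit on the fold change. At an unadjusted p under 0.05, SLC3A2 and SLC38A2 were lower in ULU than in control, 2 of 8 transporters beside 8.78% of all genes that were lower by this rule, and none of the 8 passed in the other comparisons, where 10.8% of all genes did. With DESeq2 on all libraries, 1 of 8 transporters (SLC38A2) passed the adjusted p in ULU vs control, beside 9.95% of the genes to which DESeq2 gave an adjusted p. In UL vs control 0 of 7 transporters with an adjusted p passed, beside 2.05% of genes, and in ULU vs UL 0 of 4 passed, beside 5.2%, the others being left without an adjusted p by the tool's own filter on low means.

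**Figure D1:**
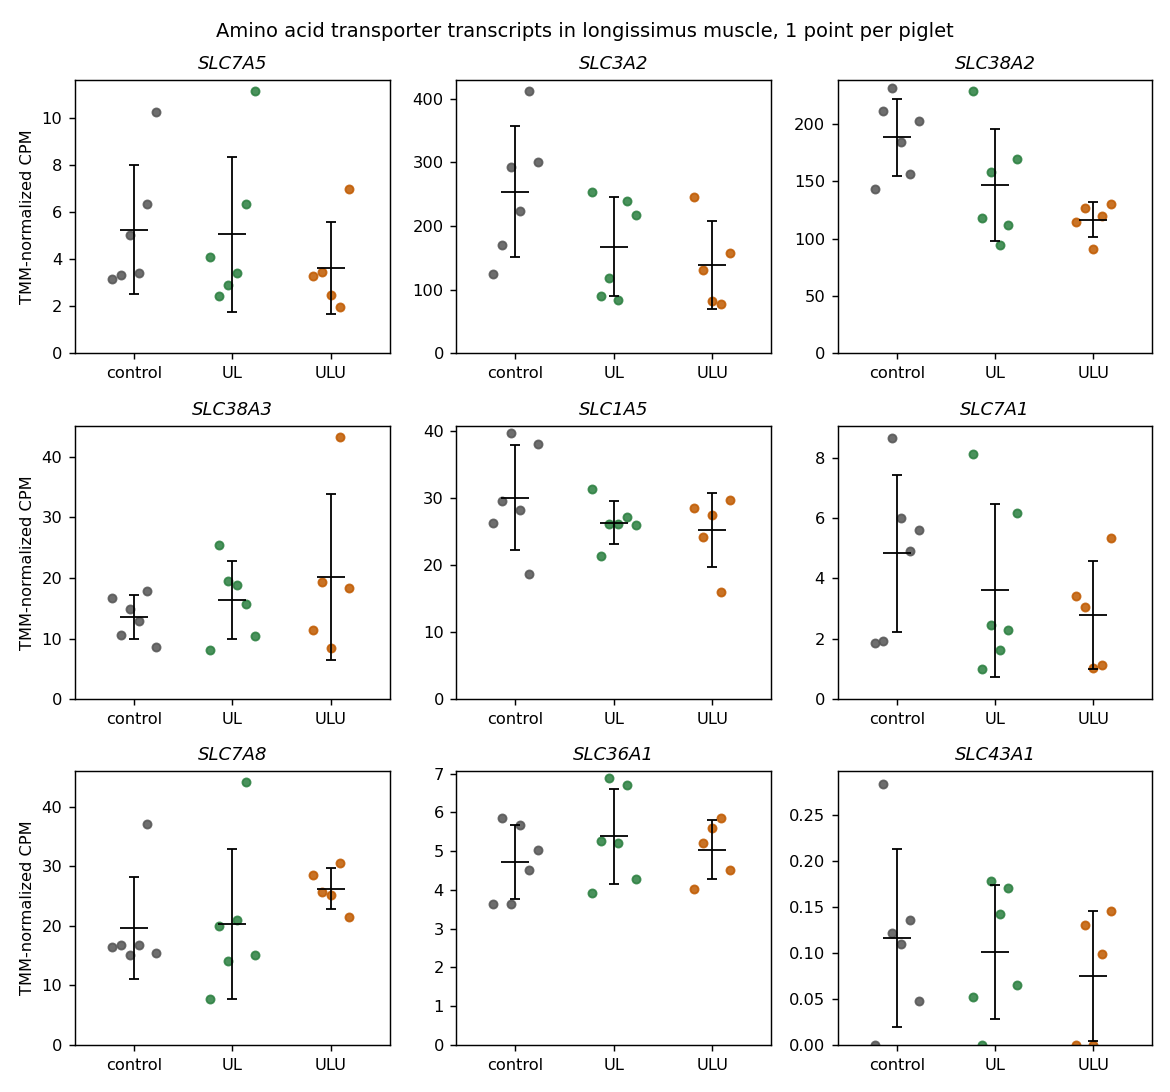
TMM-normalized CPM (vertical axis, from 0) of the 9 transporters in control, UL and ULU, with 1 point per piglet, and the mean as a long bar with the SD as an error bar. SLC38A2 is the gene whose ULU points, 91.1 to 130.05 CPM, all lie below the control points, 143.1 to 231.3 CPM, and SLC7A8 shows 1 high piglet in control (37.0 CPM) and 1 in UL (44.1 CPM).

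The order of the levels was set per length of exon, since counts of different genes are comparable only then. On the scale of CPM per kilobase, SLC3A2 was the highest with 88.2 ± 44.0 (SD, n = 17), followed by SLC38A2 with 32.5 ± 9.67, SLC1A5 with 9.55 ± 2.05, SLC7A8 with 4.51 ± 1.91 and SLC38A3 with 2.88 ± 1.47. SLC7A1 with 0.603 ± 0.396, SLC7A5 with 0.593 ± 0.339 and SLC36A1 with 0.436 ± 0.0858 were close together, and SLC43A1 came last. SLC3A2 was above SLC38A2, and SLC38A2 above SLC1A5, in 17 of 17 libraries. SLC1A5 was above SLC7A8 in 15 libraries and SLC7A8 above SLC38A3 in 14, while SLC38A3 was above SLC7A1 in 17. The last 3 tested transporters had no stable order, since SLC7A1 was above SLC7A5 in 6 libraries of 17 and SLC7A5 above SLC36A1 in 9. Among 24 other amino acid carriers that were tested, none had a higher mean level per kilobase than SLC3A2 or SLC38A2, 1 was above SLC1A5 and 16 were above SLC7A5.

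**Figure D2:**
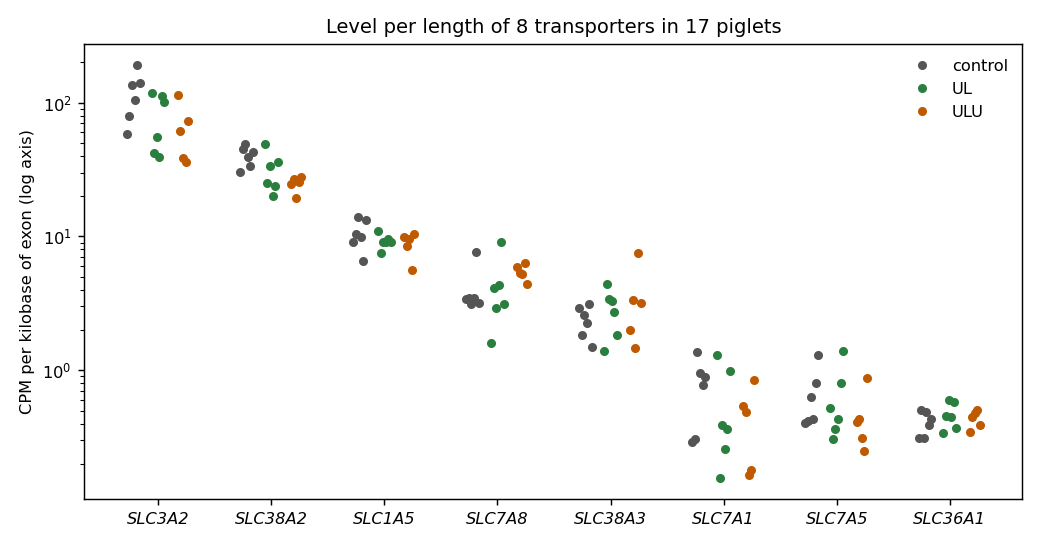
Level in CPM per kilobase of exon (log axis) of the 8 tested transporters in each of 17 piglets, coloured by diet and ordered by the mean. SLC3A2, at 36.1 to 192.1, lies above SLC38A2 in every library, while the points of SLC7A1, SLC7A5 and SLC36A1 overlap below 1.41.

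SLC3A2 (ENSSSCG00000022404) lies on chromosome 2 of Sscrofa11.1, 8892089 to 8919072, on the minus strand, with 2149 bases of exon. In control its level was 125.2 CPM at the lowest, 258.1 at the median and 412.8 at the highest. In UL the lowest was 84.5, the median 167.8 and the highest 253.7 CPM. In ULU the values were 245.7, 131.0, 82.4, 77.6 and 157.3 CPM. ULU 40 lay near the control median, the other 4 ULU piglets lay in the lower part of the control range or below it, and the diets overlapped. On the log2 scale the fold change was −0.60 (SE 0.34, edgeR adjusted p = 0.544) in UL vs control, −0.87 (SE 0.36, edgeR adjusted p = 0.192) in ULU vs control and −0.27 (SE 0.35, edgeR adjusted p = 0.851) in ULU vs UL. UL vs control and ULU vs control share their 6 control libraries, here and for every gene below.

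The light chain SLC7A5 (ENSSSCG00000032996, chromosome 6, 1545940 to 1574288, plus strand, 7951 bases of exon) was a low transcript in this muscle. Its level was 3.18, 4.23 and 10.3 CPM at the lowest, median and highest control piglet, and 2.43, 3.77 and 11.2 CPM in UL. In ULU the values were 3.28, 3.44, 2.47, 1.97 and 7.003 CPM. A single piglet was well above the rest in each diet, control 26, UL 32 and ULU 44. Its log2(fold change) was −0.07 (SE 0.39, edgeR adjusted p = 0.973) in UL vs control and −0.54 (SE 0.41, edgeR adjusted p = 0.515) in ULU vs control. In UL vs control it had no stable sign, being 0.24 without control 26 and −0.46 without UL 32. Per kilobase, the transcript of the heavy chain SLC3A2 was 71.7 to 277 times that of SLC7A5, with a median of 146 over 17 libraries, and 5.70 to 73.7 times that of SLC7A8, with a median of 19.1.

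SLC7A8, the other light chain (ENSSSCG00000002032, chromosome 7, 75854882 to 75921931, plus strand, 4824 bases of exon), differed from SLC7A5 in its pattern over piglets. In control, 5 of 6 piglets lay between 15.1 and 16.8 CPM, and control 25 had 37.0 CPM. In UL, 5 piglets lay between 7.72 and 20.9 CPM, and UL 31 had 44.1 CPM. Piglets of the ULU diet had 28.5, 25.7, 25.1, 30.6 and 21.4 CPM, each above the 5 lower piglets of both other diets and below control 25 and UL 31. Its log2(fold change) was 0.42 in ULU vs control (SE 0.32, edgeR adjusted p = 0.509), and 0.71 (SE 0.30, edgeR adjusted p = 0.162) without control 25. In UL vs control it was 0.05 (SE 0.31, edgeR adjusted p = 0.975) and turned to −0.34 without UL 31, while it was 0.33 without control 25. In ULU vs UL it was 0.37 (SE 0.32, edgeR adjusted p = 0.751), and 0.76 without UL 31.

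SLC43A1 (ENSSSCG00000036359, chromosome 2, 13406941 to 13436268, plus strand, 2990 bases of exon) was close to the limit of detection. It had 0 to 6 reads per library and 33 reads in all, of which 14 were from control, 12 from UL and 7 from ULU. At least 3 reads were found in 6 of 17 libraries, and 4 libraries had none. The highest level was 0.283 CPM, and no comparison between diets was made for this gene.

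SLC38A2 (ENSSSCG00000000808, chromosome 5, 77113493 to 77127650, minus strand, 4688 bases of exon) came nearest to a difference between diets. In control its level was 143.1 CPM at the lowest, 193.1 at the median and 231.3 at the highest. In UL it was 94.6, 137.9 and 228.2 CPM. The ULU piglets had 114.6, 126.5, 91.1, 119.7 and 130.05 CPM, all below the lowest control piglet. SLC38A2 was thus lower without overlap in ULU than in control, 1 of 8 transporters beside 1.09% of all genes tested. No transporter was without overlap in UL vs control, where 0.852% of all genes were, or in ULU vs UL, where 1.75% were. In ULU vs control the log2(fold change) was −0.69 (SE 0.19, edgeR adjusted p = 0.0547 over all genes tested). It was −0.36 (SE 0.18, edgeR adjusted p = 0.486) in UL vs control and −0.33 (SE 0.19, edgeR adjusted p = 0.556) in ULU vs UL. The adjusted p in ULU vs control was 0.00995 with DESeq2 on all libraries, 0.000362 with DESeq2 on the 2 diets and 0.0410 with edgeR on the 2 diets. When 1 library at a time was left out, the adjusted p ranged from 0.0279 to 0.111 and was past 0.05 without control 21, control 25, UL 27 or UL 30, while the log2(fold change) stayed between −0.76 and −0.61. Beside this, the mitochondrial share did not overlap between the same diets and the muscle marker sum was higher in ULU with overlap (two-sided exact permutation test, p = 0.00866, adjusted p = 0.130, as for the mitochondrial share), and the part of either in the result was not tested. With mitochondrial genes left out of the fit the log2(fold change) of SLC38A2 was −0.68 (edgeR adjusted p = 0.0551).

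SLC38A3 (ENSSSCG00000011397, chromosome 13, 32683191 to 32704535, plus strand, 5738 bases of exon), the other sodium-coupled carrier, had its highest mean in ULU. In control its level was 8.55, 13.9 and 17.8 CPM at the lowest, median and highest piglet, and in UL 8.03, 17.3 and 25.5 CPM. The ULU piglets had 11.5, 19.4, 8.41, 43.3 and 18.4 CPM. Only ULU 43 was above the ranges of both other diets. Its log2(fold change) was, in ULU vs control, 0.57 (SE 0.35, edgeR adjusted p = 0.395), and 0.08 without ULU 43. In ULU vs UL it was 0.30 (SE 0.35, edgeR adjusted p = 0.824), and −0.19 without that library.

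SLC1A5 (ENSSSCG00000003105, chromosome 6, 52647432 to 52661459, minus strand, 2862 bases of exon) had the smallest ratio between the highest and the lowest library, 2.48, among the 5 most abundant transporters. Its level was 18.7, 28.9 and 39.6 CPM at the lowest, median and highest control piglet, and 21.4, 26.1 and 31.3 CPM in UL. The ULU piglets had 28.5, 24.2, 27.5, 15.97 and 29.7 CPM, and the diets overlapped. ULU 43, the highest library for SLC38A3, was the lowest of the 17 for SLC1A5. The fold change on the log2 scale was −0.19 (SE 0.17, edgeR adjusted p = 0.742) in UL vs control, −0.26 (SE 0.18, edgeR adjusted p = 0.471) in ULU vs control and −0.07 (SE 0.18, edgeR adjusted p = 0.935) in ULU vs UL.

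SLC7A1 (ENSSSCG00000029456, chromosome 11, 6538055 to 6596878, minus strand, 6296 bases of exon) varied most, from 0.983 CPM in UL 28 to 8.67 CPM in control 23, a ratio of 8.82 over the 17 libraries. The lowest, median and highest levels were 1.85, 5.25 and 8.67 CPM in control and 0.983, 2.36 and 8.14 CPM in UL. The ULU piglets had 3.41, 3.05, 1.04, 1.13 and 5.35 CPM. Each diet held both low and high piglets. The log2(fold change) was −0.42 (SE 0.50, edgeR adjusted p = 0.811) in UL vs control, −0.79 (SE 0.54, edgeR adjusted p = 0.460) in ULU vs control and −0.36 (SE 0.54, edgeR adjusted p = 0.868) in ULU vs UL.

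SLC36A1 (ENSSSCG00000035442, chromosome 16, 71540642 to 71607421, minus strand, 11567 bases of exon) had the narrowest range of the 8, with a ratio of 1.90 between the highest and the lowest library. Its level was 3.63, 4.76 and 5.85 CPM at the lowest, median and highest control piglet, and 3.91, 5.24 and 6.89 CPM in UL. The ULU piglets had 4.02, 5.20, 5.59, 5.86 and 4.52 CPM. All 3 diets covered nearly the same range. The log2(fold change) was 0.19 (SE 0.18, edgeR adjusted p = 0.758) in UL vs control, 0.09 (SE 0.19, edgeR adjusted p = 0.831) in ULU vs control and −0.10 (SE 0.19, edgeR adjusted p = 0.903) in ULU vs UL.

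**Figure D3:**
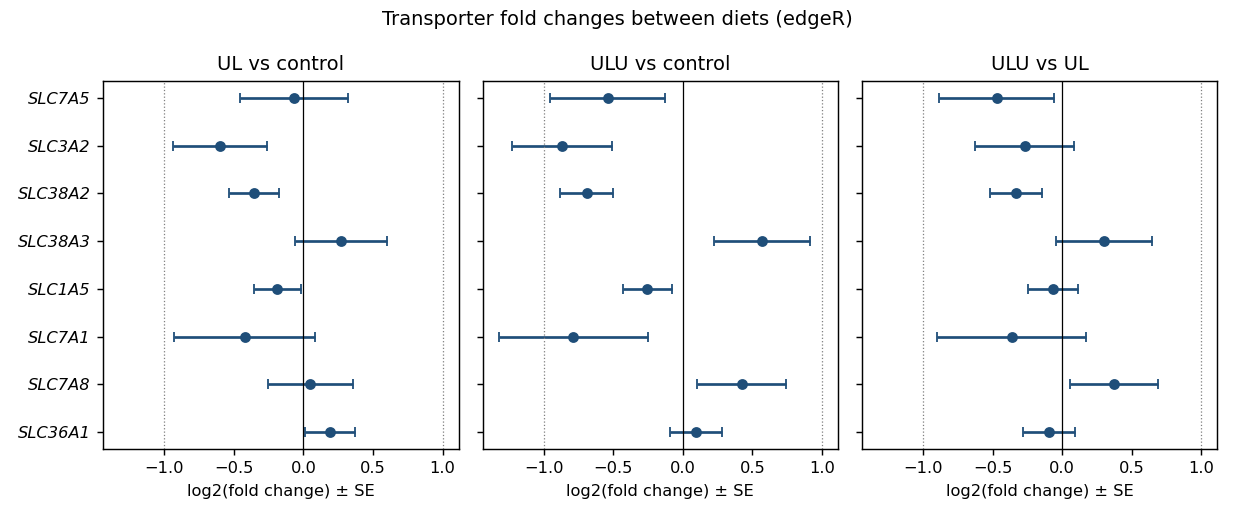
Log2(fold change) of the 8 tested transporters with its SE (horizontal axis) for UL vs control (left), ULU vs control (middle) and ULU vs UL (right), with dotted lines at −1 and 1. In the middle panel SLC3A2 (−0.87), SLC7A1 (−0.79) and SLC38A2 (−0.69) lie furthest to the left and SLC38A3 (0.57) furthest to the right, and no value lies beyond the dotted lines.

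Across the 8 transporters, the log2(fold change) was negative in 5 in UL vs control (SLC3A2, SLC38A2, SLC1A5, SLC7A5 and SLC7A1), in the same 5 in ULU vs control, and in 6 in ULU vs UL. Of all genes tested, 50.5%, 53% and 53% were negative in these comparisons. The median log2(fold change) of the transporters was −0.13 in UL vs control, −0.40 in ULU vs control and −0.18 in ULU vs UL, beside medians of −0.0027, −0.028 and −0.021 of all genes tested. The first 2 comparisons share their control libraries, so the shared signs are not separate evidence.

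The wider set of amino acid carriers gave no gene past the adjusted p either. Of 32 listed carriers, 31 had a row of counts and 24 were tested, and none rose or fell in any comparison by edgeR. DESeq2 on all libraries called 0 of the 11 carriers with an adjusted p in UL vs control, 1 of 18 as lower in ULU vs control (SLC38A6, adjusted p = 0.0156) and 0 of 4 in ULU vs UL. Of all genes with an adjusted p by DESeq2, 2.05%, 9.95% and 5.2% were called in these comparisons, in either direction. At an unadjusted p under 0.05, 2 were lower in UL vs control, 2 were lower and 1 was higher in ULU vs control, and 1 was lower and 1 was higher in ULU vs UL. Of all genes tested, 10.8%, 18.9% and 10.8% had such a p in these comparisons. The log2(fold change) was negative in 19, 14 and 12 of the 24 carriers, beside 50.5%, 53% and 53% of all genes tested. Their median log2(fold change) was −0.08 in UL vs control, −0.09 in ULU vs control and −0.00013 in ULU vs UL. The medians of all genes tested were −0.0027, −0.028 and −0.021.

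Among 37 listed genes of the amino acid response (ATF4 targets and regulators), 34 were tested, and 2 fell in ULU vs control while none rose, beside 0.993% of all genes tested that fell and 1.99% that rose. ATF3, a transcription factor induced by stress, had 19.3, 119.6 and 226.7 CPM at the lowest, median and highest control piglet and 4.25, 8.56 and 19.4 CPM in ULU, and the diets overlapped only at the lowest control and highest ULU values. Its log2(fold change) was −3.46 (SE 0.62, edgeR adjusted p = 0.00898). CHAC1, an enzyme that degrades glutathione, had 20.2, 24.0 and 122.8 CPM in control and 3.60, 5.77 and 20.9 CPM in ULU. Its log2(fold change) was −2.46 (SE 0.60, edgeR adjusted p = 0.0337), and the call was lost, with an adjusted p of 0.0573 to 0.0837, without control 23, control 26, ULU 40, ULU 42, ULU 43 or ULU 44, and it was lost with edgeR on the 2 diets (adjusted p = 0.0657). In UL vs control neither passed with edgeR, with a log2(fold change) of −2.17 (SE 0.54, adjusted p = 0.155) for ATF3 and −2.07 (SE 0.55, adjusted p = 0.171) for CHAC1, and both passed with DESeq2 on all libraries (adjusted p = 0.0236 and 0.0337). DESeq2 called 3 genes of the list as lower in each comparison with control (ATF3, CHAC1 and DDIT4), among 31 with an adjusted p for the UL diet and 33 for the ULU diet, and 0 of 18 in ULU vs UL. These counts stand beside the 2.05%, 9.95% and 5.2% of all genes given above, which count calls in either direction. The median over the 34 genes was −0.41 in UL vs control, −0.35 in ULU vs control and 0.11 in ULU vs UL. The medians of all genes tested were −0.0027, −0.028 and −0.021. Negative values were found for 29, 27 and 14 of the 34 genes, beside 50.5%, 53% and 53% of all genes tested. Neither ATF3 nor CHAC1 is a carrier. The study singled out ATF3, CHAC1 and DDIT4 from these libraries, so their direction is not independent evidence.

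Among 35 listed genes by which amino acids are sensed for mTORC1, 32 were tested, and 2 rose in ULU vs control while none fell, beside the same 1.99% and 0.993% of all genes. Both encode Rag GTPases, which bring mTORC1 to the lysosome. RRAGD had 30.0, 39.6 and 43.8 CPM at the lowest, median and highest control piglet and 51.1, 57.1 and 74.6 CPM in ULU, with no overlap, and a log2(fold change) of 0.65 (SE 0.12, edgeR adjusted p = 0.00869). RRAGA had 68.7, 78.7 and 102.8 CPM in control and 98.9, 111.5 and 115.8 CPM in ULU, and a log2(fold change) of 0.43 (SE 0.10, edgeR adjusted p = 0.0361). The RRAGA call was lost without control 22, 23, 24 or 26, and without any 1 of the 5 ULU libraries, with an adjusted p of at most 0.0801, and also without the filter (0.0556) and with edgeR on the 2 diets (0.0805). The median over the 32 genes was −0.00083 in UL vs control, 0.08 in ULU vs control and 0.11 in ULU vs UL, beside the medians of all genes given above. By edgeR none of the 32 passed in UL vs control or ULU vs UL, with 3 and 4 at an unadjusted p under 0.05, where 10.8% of all genes were in both comparisons. In ULU vs control 4 of the 32 were higher and 1 was lower at that unadjusted p, beside 18.9% of all genes in either direction. DESeq2 called 0 of 30 in UL vs control and 3 of 31 as higher in ULU vs control (DEPTOR, RRAGA and RRAGD). In ULU vs UL it called 2 of 17 as higher (DEPTOR and RRAGD). Of all genes with an adjusted p by DESeq2, 2.05% were called in UL vs control, 9.95% in ULU vs control and 5.2% in ULU vs UL, in either direction. DEPTOR encodes an inhibitor of mTOR, and by edgeR its log2(fold change) was 0.54 (SE 0.15, adjusted p = 0.0523) in ULU vs control and 0.53 (SE 0.15, adjusted p = 0.202) in ULU vs UL.

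Some pairs of transporters varied together among piglets of the same diet. For each library, the log2 CPM minus the mean of its diet was taken, and the 28 pairs of transporters were compared over 17 piglets, with permutation within diets and adjustment over the 28 pairs. By Pearson's r 5 pairs passed, and all 5 also passed by Spearman's rho, by which 7 passed. The 4 positive pairs joined SLC3A2, SLC7A5, SLC7A1 and SLC38A2. Below, r within a single diet is given for control and UL only. The r within the 5 ULU piglets is not given, so whether a relation holds in that diet alone is not shown.

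SLC3A2 and SLC7A1 were the closest pair, with r = 0.80 (permutation p = 0.00091, adjusted p = 0.0209) and rho = 0.740 (permutation p = 0.00259, adjusted p = 0.0389). Without the 2 libraries furthest from the median of SLC3A2, control 21 and ULU 40, r was 0.797, and r was 0.776 within control and 0.805 within UL. SLC3A2 and its light chain SLC7A5 had r = 0.69 (permutation p = 0.00544, adjusted p = 0.0381) and rho = 0.721 (adjusted p = 0.0389), with r = 0.725 without control 26 and UL 32. Within control their r was 0.748 and within UL 0.716. SLC38A2 and SLC7A1 had r = 0.70 (permutation p = 0.00477, adjusted p = 0.0381) and rho = 0.684 (adjusted p = 0.0389), with r = 0.612 without UL 27 and UL 30, and their r was 0.461 within control and 0.848 within UL. SLC7A5 and SLC7A1 had r = 0.67 (permutation p = 0.00844, adjusted p = 0.0473) and rho = 0.672 (adjusted p = 0.0389), with r = 0.652 without control 26 and UL 32, and their r was 0.534 within control and 0.615 within UL. For the other light chain, SLC7A8, r with SLC3A2 was 0.08 (permutation p = 0.812, adjusted p = 0.842) and rho was −0.0907, and whether this differs from the r of SLC7A5 was not tested.

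SLC38A3 and SLC1A5 deviated in opposite directions, with r = −0.69 (permutation p = 0.00149, adjusted p = 0.0209) and rho = −0.652 (adjusted p = 0.0389), with r = −0.575 without ULU 42 and ULU 43. Within control r was −0.619 and within UL −0.822. With the share of counts in the 10 highest genes of a library, SLC38A3 had r = 0.671 (permutation p = 0.0106; rho = 0.603, 0.513 for r without 2 libraries) and SLC1A5 had r = −0.565 (permutation p = 0.0266; rho = −0.502, −0.524 without 2), and neither passed among the 24 relations with library measures (adjusted p = 0.213 for both). The part of that share in the relation of SLC38A3 with SLC1A5 was not tested. SLC38A2 and SLC7A8 had r = −0.69 (permutation p = 0.0167, adjusted p = 0.0668) and rho = −0.718 (adjusted p = 0.0389), with r = −0.589 without UL 27 and UL 30, −0.505 within control and −0.816 within UL. SLC1A5 and SLC7A8 had r = −0.50 (permutation p = 0.0115, adjusted p = 0.0537) and rho = −0.556 (adjusted p = 0.0495), with r = −0.304 without control 25 and ULU 43, −0.861 within control and −0.389 within UL. Both pairs passed by rho only, and the r of SLC1A5 and SLC7A8 ran from −0.676 to −0.327 when 1 library was left out, so that it rests in part on control 25 and ULU 43.

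The number of pairs that passed depended on single libraries. It was 0 without ULU 43, 1 without ULU 41, 2 without control 21, control 23, UL 29 or UL 30, 3 without control 22, UL 32 or ULU 44, and 9 without ULU 42. With 1 library at a time left out, the r of SLC3A2 and SLC7A1 stayed between 0.778 and 0.857, and that of SLC38A3 and SLC1A5 between −0.778 and −0.559. For these ranges the diet means of all 17 libraries were kept.

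**Figure D4:**
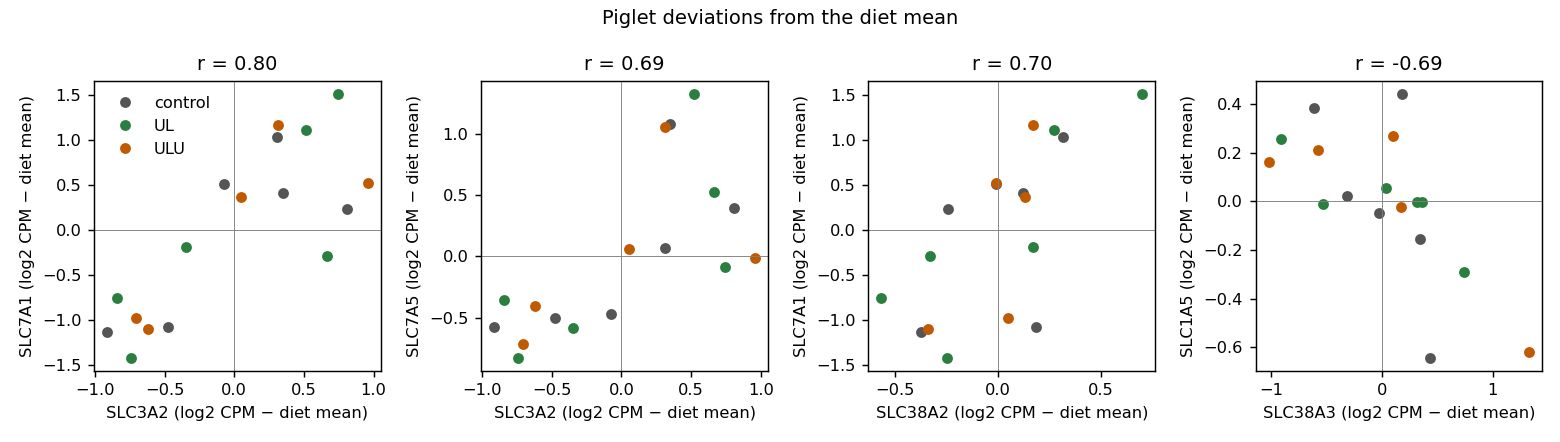
Log2 CPM minus the mean of the diet for 4 pairs of transporters, with 1 point per piglet coloured by diet and Pearson's r above each panel. SLC7A1 and SLC7A5 are high where SLC3A2 is high (r = 0.80 and 0.69), SLC7A1 is high where SLC38A2 is (0.70), and SLC1A5 is low where SLC38A3 is high (−0.69).

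The 3 genes most like each transporter were sought by Pearson's r of these deviations over 17 libraries, among 14202 other genes, and are given as a description with no test. For SLC7A1 all 3 were aminoacyl-tRNA synthetases, which load amino acids on tRNA, AARS1 (r = 0.919), GARS1 (0.913) and IARS1 (0.911). For SLC3A2 they were SARS1 (0.863), AARS1 (0.855) and COX10 (0.852), of which SARS1 and AARS1 are again synthetases. For SLC7A5 they were ARG2 (0.893), a mitochondrial arginase, ADGRL4 (0.832) and the synthetase GARS1 (0.827). The other transporters had no synthetase among their 3. These were ADAMTS20 (0.891), SLMAP (0.879) and EIF3A (0.854) for SLC38A2, and ATG9A (0.876), TMEM52 (0.873) and KLHDC3 (0.863) for SLC38A3. For SLC1A5 they were CASP10 (0.859), CLIC4 (0.853) and FBXO4 (0.841), and for SLC7A8 TOM1L2 (0.848), TIMM10B (0.815) and VPS36 (0.814). SLC36A1 was closest to TNIP2 (0.861), ENSSSCG00000050077 (0.802) and MZF1 (0.798).

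Set against all 34 tested genes of the amino acid response, the transporters lay on both sides of 0. The median r was 0.691 for SLC7A1, with 64.7% of the 34 genes above 0.5, beside 5.62% of all genes. It was 0.540 for SLC1A5, with 55.9% above 0.5 beside 6.14%, and 0.534 for SLC7A5, with 52.9% beside 2.49%. SLC3A2 had a median of 0.484, with 50% above 0.5 beside 5.62%, and SLC38A2 had 0.429, with 41.2% beside 7.02%. For the remaining 3 the median was negative, −0.282 for SLC7A8, −0.404 for SLC36A1 and −0.489 for SLC38A3. The median over all genes tested lay between −0.0144 and 0.0191 for each transporter. The response genes share these 17 libraries and vary with each other, so the 34 values of r are not separate measurements, and no p is given. ATF3, which fell in ULU, had r = 0.80 with SLC38A2 and 0.07 with SLC3A2 within diets. CHAC1, which also fell in ULU, had r = 0.73 with SLC7A1, 0.63 with SLC38A2 and 0.43 with SLC3A2. DDIT4, called lower by DESeq2 alone, had r = −0.28 with SLC7A1, −0.23 with SLC38A2 and −0.16 with SLC3A2. Over the 34 response genes r ran from −0.29 to 0.92 for SLC7A1, from −0.50 to 0.85 for SLC38A2 and from −0.37 to 0.86 for SLC3A2. Against the 24 other carriers the median r of the transporters lay between −0.115 and 0.153, and against the 32 mTORC1 genes between −0.0059 and 0.117.

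**Figure D5:**
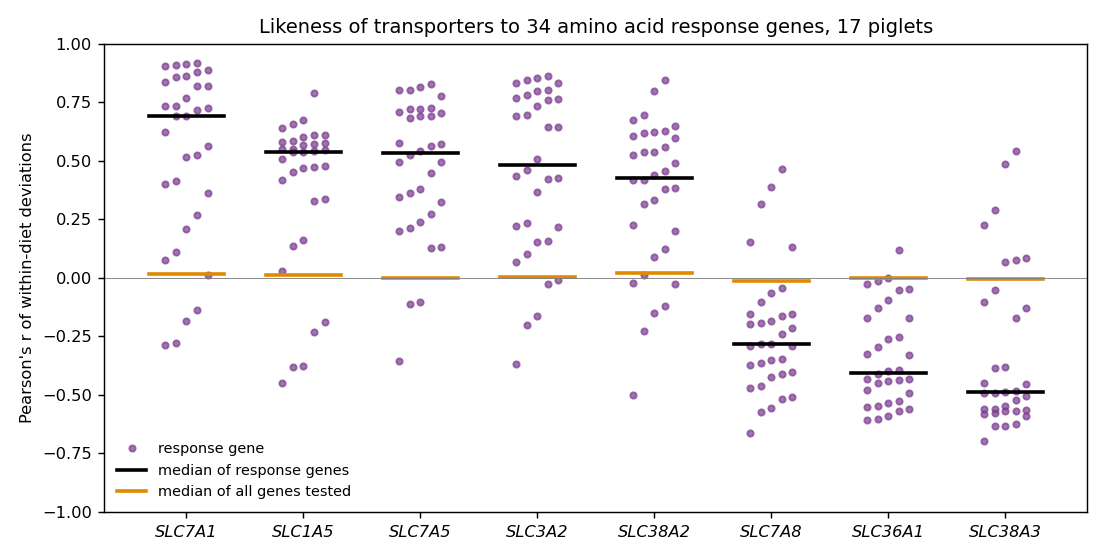
Pearson's r of the within-diet deviations of each of the 8 transporters with each of 34 amino acid response genes over 17 piglets (1 point per response gene), with the median of the response genes in black and that of all genes tested in orange. The black bars run from 0.691 for SLC7A1 down to −0.489 for SLC38A3, and the orange bars lie near 0 throughout.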

How the data were processed

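RNA from the longissimus muscle of 17 piglets was sequenced as single reads. The authors used fastp for trimming and hisat2 for alignment, and deposited unnormalized read counts per gene. The header names featureCounts 2.0.1 with the Ensembl annotation 104 of Sscrofa11.1, and the submitters' processing notes name Subread 1.5.1. No option for strand, reads at several sites or overlapping genes is given, and no exon of the 9 transporters overlaps an exon of another gene. The authors also deposited a mean signal per gene over all libraries, which served here as a check of the counts. Symbols were assigned by Ensembl identifier, for 15030 of 31908 genes. The members and gene lists were chosen with earlier results of these data known.

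Counts were scaled by TMM, filtered (14203 genes kept) and tested with the edgeR 4.0.16 quasi-likelihood F test in 1 model of all libraries, in R 4.3.3, with Benjamini-Hochberg adjustment over all genes tested. The SE is the absolute log2(fold change) divided by the square root of F. DESeq2 1.42.0 was an alternative, and the methods of the study use DESeq2 1.34.0. Within-diet deviations used log2 CPM with a prior count of 2 and 100000 permutations within diets. Library measures were compared with exact permutation tests. Alternatives were the size factors, the filter, the tool, the libraries in the model, the prior count and leaving out each library in turn, and the fit without mitochondrial genes was chosen after seeing the data. Scripts were tested on simulated data.

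Named genes are the 9 transporters, up to 8 genes of each list past the adjusted p, and the 3 genes most like each transporter. SLC38A6, DDIT4 and DEPTOR, called by DESeq2 alone, were named after their values were seen. The listed symbols without a matched row were SLC7A6, ATF4, LAMTOR4, NPRL2 and 9 markers. All count columns were used. No sequence is shown, as no sequence was used here. P-values set a difference or relation against the spread between piglets. With 1 library each, that spread cannot be told apart from variation of sampling and library preparation.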

Additional observations from a re-analysis of the deposited data

Results flagged for a closer look

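SLC7A8 had 1 piglet far from the other 5 in 2 diets. In control, control 25 had 37.0 CPM where the others had 15.1 to 16.8 CPM, a gap of 0.922 of the range of the diet. In UL, UL 31 had 44.1 CPM where the others had 7.72 to 20.9 CPM, a gap of 0.637 of the range. A value was singled out where its gap to the nearest other value, as a share of the range, was above the critical value of Dixon's test at 0.05. These were the 2 cases among 27 groups of values checked (9 genes in 3 diets). Chance gives about 1 in 20, or 1.35 cases, if values are normally distributed, so that 2 is near the number expected. That number takes no account of how far a value lies past the critical value, and both cases are in SLC7A8.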

How the results depend on the processing

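The piglets were pair-fed, but the labels do not give which piglets were matched. No paired analysis was therefore possible, and the diets share no replicate numbers, each piglet having its own. For the transporters, no call was made in UL vs control or in ULU vs UL under any alternative run (DESeq2 on all libraries gave no adjusted p for 1 and 4 of the 8 there), and with each library left out the number called was 0 to 0 in both. DESeq2 on the 2 diets gave an adjusted p to 5 of the 8 in ULU vs UL, and none to SLC36A1, SLC7A5 and SLC7A1. In ULU vs control the number past the adjusted p was 1 (SLC38A2) with DESeq2 on all libraries, with DESeq2 on the 2 diets and with edgeR on the 2 diets, and 0 to 1 with each library left out. None passed the fold limit under any alternative run. Signs that turned were those of values that had not passed. Without 1 library the log2(fold change) in UL vs control ran from −0.46 to 0.24 for SLC7A5 (reversed at 0.24 without control 26, 0.07 without UL 28, 0.05 without UL 29 and 0.02 without UL 30) and from −0.34 to 0.33 for SLC7A8 (reversed at −0.01 without control 23, −0.0062 without control 26 and −0.34 without UL 31). In ULU vs UL it ran from −0.19 to 0.50 for SLC38A3, from −0.13 to 0.063 for SLC1A5 (both turned without ULU 43) and from −0.74 to 0.060 for SLC7A1 (turned without UL 27). The number of pairs past the adjusted p was 5 with either other scaling or prior count and 0 to 9 with a library left out.

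Counts over all genes moved more. Past the adjusted p they were, in UL vs control, 0 by edgeR, 173 by DESeq2 on all libraries and 163 on the 2 diets, with 10 and 10 past the fold limit, and 0 to 16 (0 to 2 past the fold limit) without 1 library, highest without control 25. In ULU vs control they were 423 by edgeR, 228 without the filter, 1057 and 852 by DESeq2 on all libraries and on the 2 diets, and 111 by edgeR on the 2 diets, where 27 passed the fold limit in place of 59. Without 1 library they were 147 (without ULU 43) to 799 (without control 25), and 30 to 121 past the fold limit. In ULU vs UL they were 5 by edgeR, 8 without the filter, 223 and 226 by DESeq2, and 1 by edgeR on the 2 diets, and past the fold limit 2 by edgeR, 7 by DESeq2 on the 2 diets and 1 by edgeR on the 2 diets. Without 1 library they were 1 to 7, and 1 to 3 past the fold limit. The causes were not tested. SLC43A1, with 0 to 6 reads per library, was too low for a test.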
